A study of Mus musculus with 12 samples.

Results

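The BCL2 family decides whether a cell keeps its mitochondria sealed or releases the proteins that start apoptosis, and its genes were followed here through chemical injury of the mouse colon. The 10 genes were named by symbol in a list drawn up with earlier results of these data known, and no value enters the rule. They are Bcl2, Bcl2l1, Bcl2l2 and Mcl1, which keep cells alive, Bax and Bak1, which open the outer mitochondrial membrane, and Bid, Bcl2l11, Bbc3 and Pmaip1, whose BH3-only proteins carry death signals to the others. A probe set named by that 1 symbol alone was found for 9 of the 10, among 19935 genes in all, and each of the 9 had 1 probe set. Bax is not analysed here.

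Survival proteins hold the BH3-only proteins and the membrane-opening effectors in check, and a cell dies when enough BH3-only protein is made or activated to overcome them. In the gut the family is known for removing damaged crypt cells, and MCL1 and the protein of Bcl2l1, BCL-XL, are survival factors of epithelium, while MCL1 also keeps neutrophils alive. Much of the family is controlled by protein cleavage, phosphorylation and decay, which an RNA measurement does not see.

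The study set mice that carry a Villin-Claudin-2 transgene (TG), named for villin, a gut epithelial gene, and for the tight junction pore protein claudin-2, beside their wild-type littermates (WT). All mice were male and 8 to 10 weeks old, and each genotype had plain drinking water or, over 10 days, water with 4% DSS (dextran sulfate sodium), which injures the colon lining. RNA labelled as colon epithelial cells was read on 12 Affymetrix arrays, 3 for each of WT water, TG water, WT DSS and TG DSS. The labels do not say whether each array is a separate animal, so every p-value measures the spread between these samples, which may be technical.

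Values are given on a log2 scale as the distance of an array from the probe set's own median, taken across the 12 arrays. It compares arrays, not genes, and a gene at 0 is at its own median, not absent. For the same reason the labelled cell type cannot be checked by the presence of its markers, only by how they differ between arrays. WT DSS replicate 2 stood apart, with 30.7% of all genes over 0.5 from their median, against 0.948% to 11% on the other 11 arrays. On it the median of 12 pan-epithelial markers was -2.05 and that of 12 neutrophil markers 3.90. Cldn2 itself differed by 0.14 ± 0.44 (SE) between TG and WT at water (limma adjusted p = 1), so it does not check the genotype labels.

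The promoters of Bcl2l11, Bid and Mcl1 are shown because, after Pmaip1, these 3 genes had the largest differences among the members between WT DSS and WT water, Bcl2l11 higher and Bid and Mcl1 lower. Each is the window from 250 bases before to 50 bases after an annotated start, from RefSeq on GRCm38.p6. Windows were taken for 8 of the 9 measured members. Pmaip1 was left out of the search, so its promoter was not examined. Capitals mark matches, on either strand, to the GC box GGGCGG, the CCAAT box CCAAT, the TATA box TATAAA, the E-box CACGTG, the cAMP response element core TGACG, the AP-1 element TGACTCA and the FOXO element TGTTTAC, none of which overlap one another here. Bcl2l11 has another annotated window, not shown, which held 3 GC boxes, 2 CCAAT boxes and no FOXO element. Bcl2l11 lies at chr2:128125788-128126087 on the + strand, Bid at chr6:120916775-120917074 on the - strand and Mcl1 at chr3:95658471-95658770 on the + strand.
Bcl2l11: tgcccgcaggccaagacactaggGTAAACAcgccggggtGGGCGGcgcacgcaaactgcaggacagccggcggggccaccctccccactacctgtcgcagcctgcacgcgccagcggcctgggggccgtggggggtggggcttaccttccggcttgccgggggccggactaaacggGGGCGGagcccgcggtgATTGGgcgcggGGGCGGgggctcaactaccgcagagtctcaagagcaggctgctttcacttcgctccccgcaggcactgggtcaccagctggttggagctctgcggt
Bid: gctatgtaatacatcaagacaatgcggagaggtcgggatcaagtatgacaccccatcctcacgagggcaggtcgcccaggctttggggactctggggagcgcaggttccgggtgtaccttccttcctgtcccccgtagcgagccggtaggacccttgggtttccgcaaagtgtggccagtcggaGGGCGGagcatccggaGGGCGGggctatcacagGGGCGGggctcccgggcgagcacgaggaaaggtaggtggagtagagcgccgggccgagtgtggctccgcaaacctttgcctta
Mcl1: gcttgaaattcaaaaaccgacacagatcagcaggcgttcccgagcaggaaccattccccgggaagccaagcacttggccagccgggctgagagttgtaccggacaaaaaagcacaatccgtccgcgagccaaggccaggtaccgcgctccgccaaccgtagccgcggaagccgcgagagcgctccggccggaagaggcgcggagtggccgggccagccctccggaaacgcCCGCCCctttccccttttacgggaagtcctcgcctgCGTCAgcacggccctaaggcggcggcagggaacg

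The Bcl2l11 window held 3 GC boxes, 1 CCAAT box and 1 FOXO element, whose first base is at -227 from the start and which reads on the other strand. The Bid window held 3 GC boxes and no other match, and that of Mcl1 held 1 GC box and 1 cAMP response element core. Windows outside chromosome 18 numbered 32851, all of the same length. Of these, 35.7% held a GC box, 37.4% a CCAAT box, 20.8% a cAMP response element core and 3.65% a FOXO element. The shares were 13.6% for the TATA box, 7.15% for the E-box and 5.20% for the AP-1 element, none of which matched in the 3 windows shown. The windows were rich in G and C, with 71% in Bcl2l11, 65.7% in Mcl1 and 63.3% in Bid against a median of 52.7%. Among the members not shown, Bcl2 had 7 GC boxes and 1 cAMP response element core in its window. Bcl2l2 had 1 GC box, and the windows of Bak1 and Bcl2l1 held none of the motifs. The Bbc3 windows, some of which overlap, held 5, 4 and 7 GC boxes. The window with 5 also held 1 cAMP response element core, that with 4 held 1 FOXO element, and that with 7 held 1 CCAAT box and 1 E-box. These are matches of letters, and no binding was measured.

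The first question was how the family stood in WT mice given DSS. The 4 members with the largest differences were 3 of the 4 BH3-only genes and the survival gene Mcl1, while Bbc3, the other BH3-only gene, had the smallest of all 9. On the log2 scale Bcl2l11 was higher by 0.45, and Pmaip1 was lower by 0.60, Bid by 0.39 and Mcl1 by 0.37. None of the 9 members passed limma's test after adjustment over all genes, which 34 genes (0.171%) did, and the members' adjusted p-values lay between 0.25 and 0.949. At an unadjusted limma p under 0.05 there were 4 of 9 members, where 15.2% of all genes stood. The DSS arrays lay wholly outside the water arrays for 2 of 9 members, Bcl2l11 and Bid, a pattern seen in 16.1% of all genes. The members' median difference was -0.06, beside -0.04 for all genes, and the median size was 0.13 beside 0.14.

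**Figure D1:**
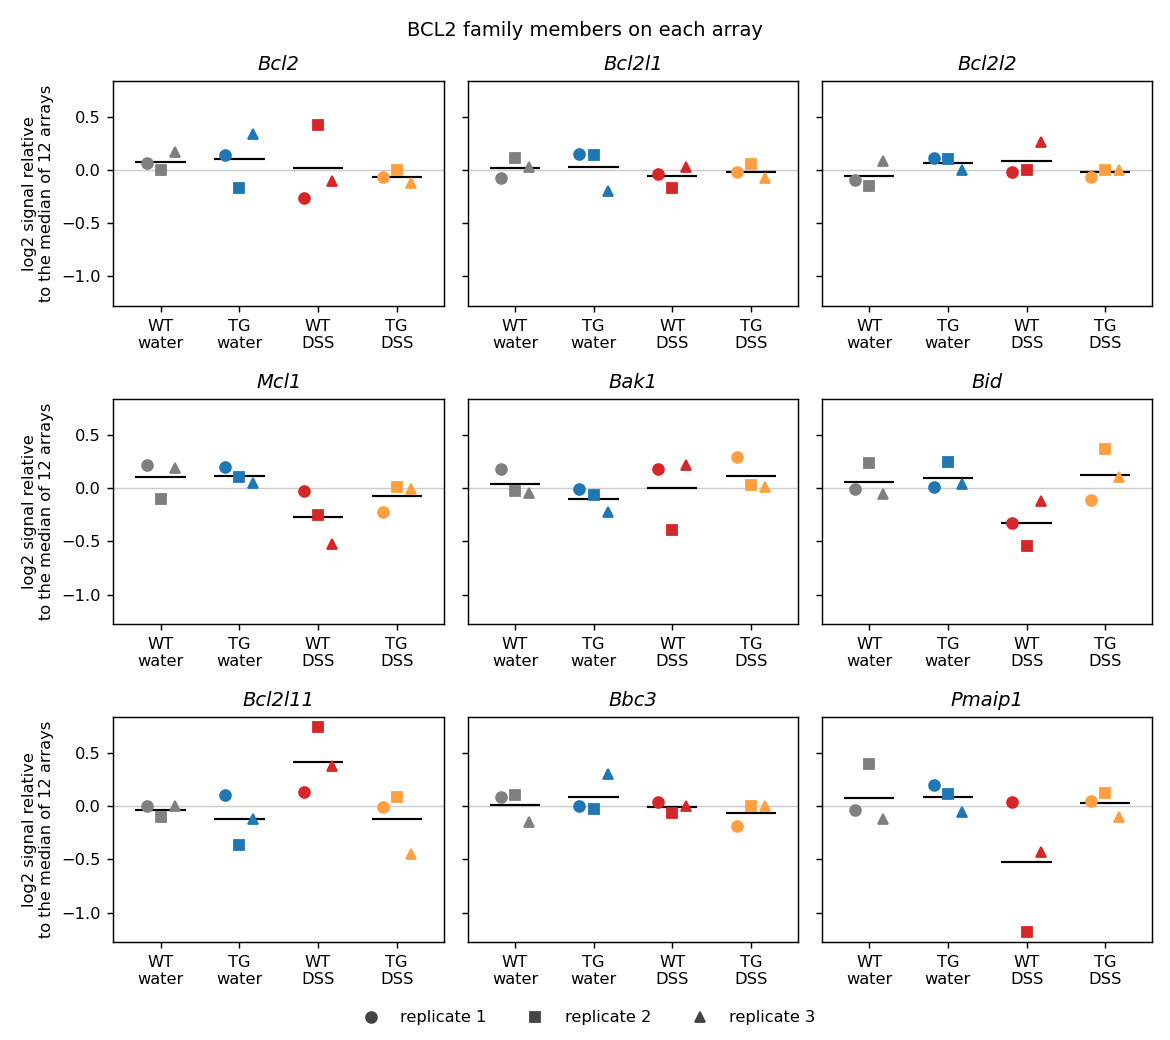
Log2 distance of the 9 measured BCL2 family members from each probe set's own 12-array median (y axis) in WT water, TG water, WT DSS and TG DSS (x axis). Each point is 1 array, its shape gives the replicate number, and black bars are means of 3 arrays. All 3 WT DSS arrays lie above the WT water arrays for Bcl2l11 and below them for Bid, and Pmaip1 spreads from 0.04 to -1.18 within WT DSS.

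Bcl2l11 (Entrez 12125, chr2:128126038-128162547 on GRCm38.p6) encodes BIM, a BH3-only protein that binds all the survival proteins. WT water replicates 1 to 3 stood at 0.003, -0.10 and -0.003, and WT DSS replicates 1 to 3 at 0.13, 0.74 and 0.37. In TG it read 0.11, -0.36 and -0.12 at water and -0.01, 0.08 and -0.45 under DSS. The 3 WT DSS arrays were thus the highest of all 12, and the TG DSS arrays lay among the TG water arrays or below them. DSS minus water was 0.45 ± 0.18 in WT (SE, n = 3 arrays per group; 1.36-fold; limma unadjusted p = 0.0351, adjusted p = 0.289). Without WT DSS replicate 2 the difference was 0.29 (limma adjusted p = 0.575; 0.124 to 0.633 over 13 alternatives).

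Bid (Entrez 12122, chr6:120893119-120917062 on GRCm38.p6) encodes a BH3-only protein that caspase-8 cuts, which ties death receptors to mitochondria. The 3 WT water arrays stood at -0.01, 0.24 and -0.06 and the 3 WT DSS arrays, also from replicate 1 to 3, at -0.33, -0.54 and -0.12. TG arrays read 0.01, 0.25 and 0.04 at water and -0.11, 0.36 and 0.10 under DSS. The 3 WT DSS arrays were the lowest of the 12, with WT DSS replicate 3 only just below TG DSS replicate 1. In WT the difference was -0.39 ± 0.15 (SE, n = 3 arrays per group; 1.31-fold lower; limma unadjusted p = 0.0256, adjusted p = 0.264). It was -0.28 without WT DSS replicate 2, the array on which epithelial markers were low (limma adjusted p = 0.492; 0.105 to 0.635 over 13 alternatives).

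Pmaip1 (Entrez 58801, chr18:66458604-66465558 on GRCm38.p6) encodes NOXA, a BH3-only protein that binds mainly MCL1 and drives its decay. It had the widest range of the members, from -1.18 to 0.39 over the 12 arrays. WT DSS replicates 1 to 3 read 0.04, -1.18 and -0.43, while the WT water arrays stood at -0.04, 0.39 and -0.12. TG read 0.20, 0.12 and -0.05 at water and 0.05, 0.13 and -0.10 under DSS. WT DSS replicate 1 lay within the water arrays, so the groups overlapped. The WT difference of -0.60 ± 0.26 (SE, n = 3 arrays per group; 1.52-fold lower; limma unadjusted p = 0.043, adjusted p = 0.311) was -0.27 without WT DSS replicate 2 (limma adjusted p = 0.617; 0.0598 to 0.691 over 13 alternatives).

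Bbc3 (Entrez 170770, chr7:16308398-16318334 on GRCm38.p6) encodes PUMA, a BH3-only protein induced by p53. It was the flattest of its class, with all 12 arrays between -0.19 and 0.30 and the 3 WT DSS arrays between -0.06 and 0.04. Its WT difference was -0.02 ± 0.11 (SE, n = 3 arrays per group), with a 95% interval from -0.27 to 0.22.

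Among the survival genes only Mcl1 had an interval in WT that left out 0. Mcl1 (Entrez 17210, chr3:95656944-95663179) stood at 0.22, -0.10 and 0.19 on the WT water arrays, replicates 1 to 3, against -0.03, -0.25 and -0.52 on those of WT DSS. In TG the readings were 0.19, 0.11 and 0.05 at water and -0.23, 0.01 and -0.01 under DSS. The WT groups overlapped through WT water replicate 2 and WT DSS replicate 1. The difference in WT was -0.37 ± 0.14 (SE, n = 3 arrays per group; 1.29-fold lower; 95% interval -0.68 to -0.07; limma unadjusted p = 0.0212, adjusted p = 0.25). It stood at -0.38 without WT DSS replicate 2 and at -0.24 without WT DSS replicate 3, the array with the lowest Mcl1.

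Bcl2 (Entrez 12043, chr1:106538176-106714290), Bcl2l1 (Entrez 12048, chr2:152758732-152833803) and Bcl2l2 (Entrez 12050, chr14:54883366-54890858) encode the survival proteins BCL-2, BCL-XL and BCL-W. Bcl2 read -0.27, 0.42 and -0.11 in WT DSS replicates 1 to 3, the lowest and the highest of its 12 values, and 0.002 to 0.17 at WT water. Its WT difference was -0.06 ± 0.18 (SE; 95% interval -0.45 to 0.33). Bcl2l1 stayed between -0.20 and 0.14 over the 12 arrays, the narrowest range of the members at 0.34, and differed by -0.08 ± 0.11 in WT (SE; 95% interval -0.32 to 0.16). Bcl2l2 read -0.10, -0.15 and 0.08 at WT water and -0.02, -0.004 and 0.26 under DSS, a difference of 0.13 ± 0.10 (SE; 95% interval -0.08 to 0.35), which was 0.04 without WT DSS replicate 3. The intervals for Bcl2l1 and Bcl2l2 leave out a change of 0.5 in either direction. That for Bcl2 does too, but all these intervals use an SE pooled over every group, TG included. The SD of Bcl2 was 0.36 in WT DSS, against 0.09 in WT water, 0.26 in TG water and 0.06 in TG DSS. An interval from the WT arrays alone is not given here, so no such bound is drawn for Bcl2.

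Bak1 (Entrez 12018, chr17:27019812-27028627), is the measured effector. Its WT water arrays, replicates 1 to 3, stood at 0.18, -0.03 and -0.05 and its WT DSS arrays at 0.18, -0.40 and 0.21. The WT DSS arrays lay on both sides of the water arrays, with WT DSS replicate 2 the lowest of the 12. The WT difference was -0.04 ± 0.16 (SE, n = 3 arrays per group), with a limma adjusted p of 0.946. It was 0.16 without WT DSS replicate 2.

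**Figure D2:**
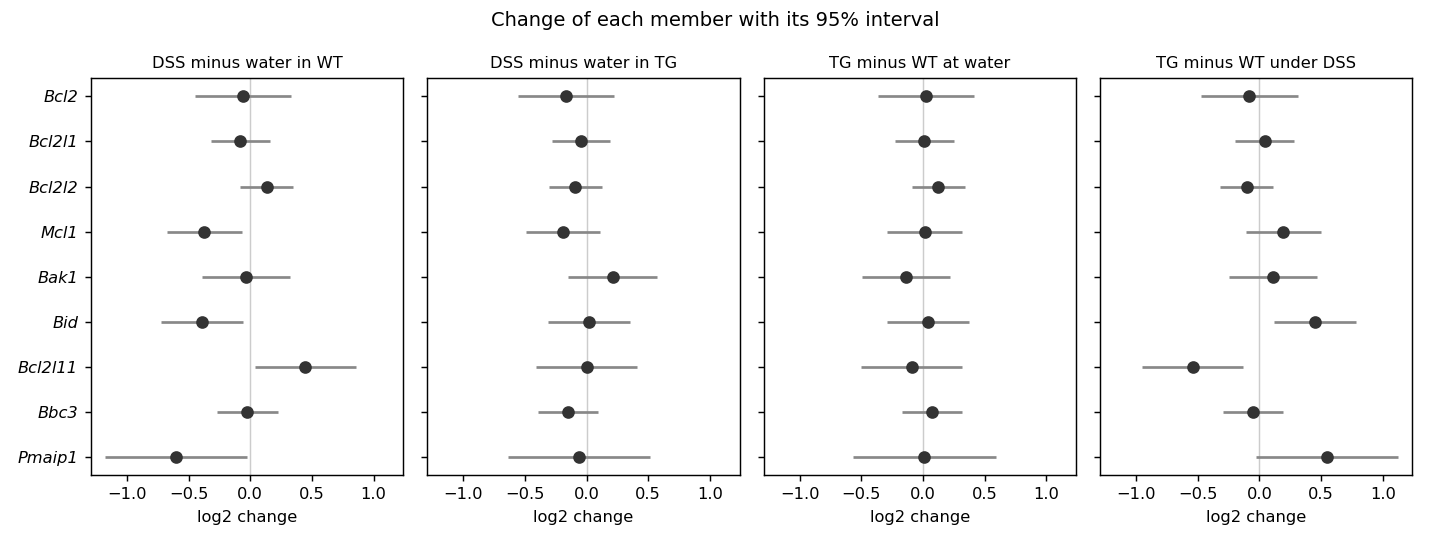
Log2 change of each member (x axis) in 4 comparisons (panels), with the members on the y axis. Points are limma estimates from 3 arrays per group and lines are 95% intervals. In WT under DSS the intervals of Mcl1, Bid, Bcl2l11 and Pmaip1 leave out 0 before adjustment, and at water all 9 intervals hold it.

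Markers of other cell types stood away from their medians on the same arrays. In WT under DSS 11 of 12 neutrophil, 13 of 13 macrophage, 10 of 10 endothelial and 11 of 11 fibroblast markers had differences above 0, and 12 of 12 pan-epithelial markers below 0. Above 0 were also 13 of 14 T and NK cell and 8 of 8 enteric neuron and glia markers, with 5 of 10 B and plasma cell and 1 of 8 smooth muscle markers. Over the WT DSS arrays the neutrophil median ran from 0.40 to 3.90, and it was at most 0.03 on the 6 water arrays. The pan-epithelial median ran from -2.05 to 0.02 in WT DSS and from -0.19 to 0.06 in TG DSS. For DSS in TG, 11 of 12 neutrophil, 13 of 13 macrophage and 11 of 11 fibroblast markers had differences above 0, and TG DSS replicate 1 had medians of 0.66, 0.96 and 0.84 for these lists. On TG DSS replicates 2 and 3 the medians were -0.04 and -0.12 for neutrophil, -0.29 and -0.15 for macrophage and -0.35 and -0.19 for fibroblast markers. In such bulk samples fewer cells of a type and less RNA per cell cannot be told apart, and the part of these shifts in the members' values was not tested. Endothelial and fibroblast medians were 0.70 and 1.07 on WT DSS replicate 1, 2.99 and 2.26 on replicate 2 and -0.32 and -0.29 on replicate 3. On WT DSS replicate 3 the medians were 0.02 for pan-epithelial, -0.08 for macrophage, 0.40 for neutrophil, 0.40 for T and NK cell and 0.42 for enteric neuron and glia markers. They were -0.42 for B and plasma cell and 0.14 for smooth muscle markers. The T and NK cell markers were spread widely on that array, from -0.29 for Cd2 to 2.60 for Gzmb. The members read 0.37 for Bcl2l11, -0.52 for Mcl1, -0.43 for Pmaip1 and -0.12 for Bid on that array.

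The next question was what the transgene did at rest. At water no member separated the genotypes: the 9 differences, TG minus WT, lay between -0.14 for Bak1 and 0.12 for Bcl2l2, with a median of 0.01 beside 0.01 for all genes. No member and no gene passed limma's adjusted test (0%), and 0 of 9 members had an unadjusted p under 0.05, where 0.306% of all genes did. No member's groups of arrays were apart, against 4.98% of all genes. The Bak1 arrays read -0.01, -0.07 and -0.23 in TG water replicates 1 to 3. Bcl2l2 read 0.11, 0.10 and -0.001 in the same arrays, and its difference of 0.12 ± 0.10 (SE; 95% interval -0.09 to 0.34; limma adjusted p = 1) passed in 1 of the settings tried, a weight per array, at 0.19 (limma adjusted p = 0.0324; 0.0324 to 1 over 13 alternatives). That setting passed 1971 genes at water and the others 0.

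In TG mice the differences between DSS and water ran from -0.19 for Mcl1 to 0.21 for Bak1, with a median of -0.06 beside -0.01 for all genes. By limma no member and no gene passed after adjustment (0%), and at an unadjusted p under 0.05 there were 0 of 9 members, where 2.38% of all genes stood. Mcl1 under DSS lay below all TG water arrays and Bak1 above them, which makes 2 of 9 members whose groups were apart, against 13.4% of all genes. For Mcl1 the gap between TG DSS replicate 2 at 0.01 and TG water replicate 3 at 0.05 was small, and the difference was -0.19 ± 0.14 (SE, n = 3 arrays per group; limma unadjusted p = 0.19, adjusted p = 1). Bak1 read 0.29, 0.03 and 0.01 in TG DSS replicates 1 to 3, for a difference of 0.21 ± 0.16 (SE; limma unadjusted p = 0.221, adjusted p = 1). It was 0.12 without TG DSS replicate 1, the TG array with the highest neutrophil, macrophage and fibroblast medians, and the part of those cells was not tested. Bcl2l11, Bid and Pmaip1, the BH3-only genes with the largest differences in WT, differed by 0.001 ± 0.18, 0.02 ± 0.15 and -0.06 ± 0.26 (SE) in TG. The 95% intervals of these 3 ran from -0.41 to 0.41, from -0.31 to 0.35 and from -0.64 to 0.51. That of Pmaip1 holds the difference seen in WT, and those of Bcl2l11 and Bid end just short of it. The WT differences have 95% intervals of their own, 0.04 to 0.86 for Bcl2l11 and -0.72 to -0.06 for Bid, which overlap those in TG. Setting a TG interval beside a WT estimate therefore does not show that the genotypes differ.

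Between the genotypes under DSS, Bid was higher in TG than in WT by 0.45 ± 0.15 (SE, n = 3 arrays per group; limma unadjusted p = 0.0127, adjusted p = 0.201). Bcl2l11 was lower in TG by 0.54, a difference of -0.54 ± 0.18 (SE; limma unadjusted p = 0.0149, adjusted p = 0.21). For both, all 3 TG arrays lay outside the WT arrays, which makes 2 of 9 members against 19% of all genes. No member passed after adjustment, as 0.0401% of all genes did, and 2 of 9 had an unadjusted p under 0.05, where 15.9% of all genes did. Pmaip1 stood at 0.55 ± 0.26 and Mcl1 at 0.19 ± 0.14 (SE), with overlapping arrays (limma adjusted p = 0.329 and 0.497). This comparison shares its WT DSS arrays with the first, so the opposite signs in both are not separate evidence. Without WT DSS replicate 2 the differences were 0.34 for Bid, -0.38 for Bcl2l11 and 0.22 for Pmaip1 (limma adjusted p = 0.374, 0.398 and 0.694). Over 13 alternatives the limma adjusted p ran from 0.0949 to 0.515 for Bid, from 0.069 to 0.589 for Bcl2l11 and from 0.0617 to 0.75 for Pmaip1.

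Whether the DSS response itself differed by genotype was tested with the interaction, the DSS difference in TG minus that in WT. It was 0.41 ± 0.21 for Bid, -0.45 ± 0.26 for Bcl2l11 and 0.54 ± 0.37 for Pmaip1 (SE; limma adjusted p = 0.852, 0.852 and 0.855). Without WT DSS replicate 2 these were 0.31, -0.28 and 0.21, and Bcl2l11 was also at -0.29 without TG DSS replicate 3. Pmaip1 stood at 0.82 without WT DSS replicate 1 and ran from 0.03 to 0.82 over 18 alternatives. The lowest of these came from a weight per array, which put Bcl2l11 at -0.13. The 9 values lay between -0.45 and 0.54, and no member and no gene passed (0%). At an unadjusted limma p under 0.05 the interaction had 0 of 9 members, where 5.85% of all genes stood. All 9 of the 95% intervals held 0, so a genotype difference in the response of these genes was not shown.

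Ordered by group mean, Bcl2l11 was highest in WT DSS (0.41 ± 0.31, SD, n = 3), then WT water (-0.03 ± 0.06), TG DSS (-0.12 ± 0.28) and TG water (-0.13 ± 0.24). Bid ran from TG DSS (0.12 ± 0.24) over TG water (0.10 ± 0.13) and WT water (0.06 ± 0.16) to WT DSS (-0.33 ± 0.21). Mcl1 had its 2 water groups on top, TG at 0.12 ± 0.07 and WT at 0.10 ± 0.18, then TG DSS at -0.08 ± 0.13 and WT DSS at -0.27 ± 0.25. For Pmaip1, TG water (0.09 ± 0.13), WT water (0.08 ± 0.28) and TG DSS (0.02 ± 0.11) lay close together and WT DSS was last at -0.52 ± 0.62. Over the 9 members 27 pairs of neighbouring groups were compared, and in 2 of them the arrays did not overlap: WT DSS over WT water for Bcl2l11, and WT water over WT DSS for Bid. These are the 2 separations already given for DSS in WT, a pattern seen in 16.1% of all genes, and not a further result. Neighbouring groups were not counted over all genes.

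Set against all genes, the members varied about as much as the median gene. Their range over the 12 arrays, from 0.34 for Bcl2l1 to 1.57 for Pmaip1, compared with a median of 0.64 for all genes. Of all genes 85% had a smaller range than Pmaip1, 77.7% than Bcl2l11 and 68.6% than Bid, but only 13.1% than Bcl2l1 and 20.7% than Bcl2l2. On WT DSS replicate 2, 3 of 9 members lay over 0.5 from their median, Bcl2l11 above it and Bid and Pmaip1 below it, beside 30.7% of all genes. On WT DSS replicate 3 it was 1 of 9, Mcl1, beside 11% of all genes, and on the other 10 arrays 0 of 9.

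**Figure D3:**
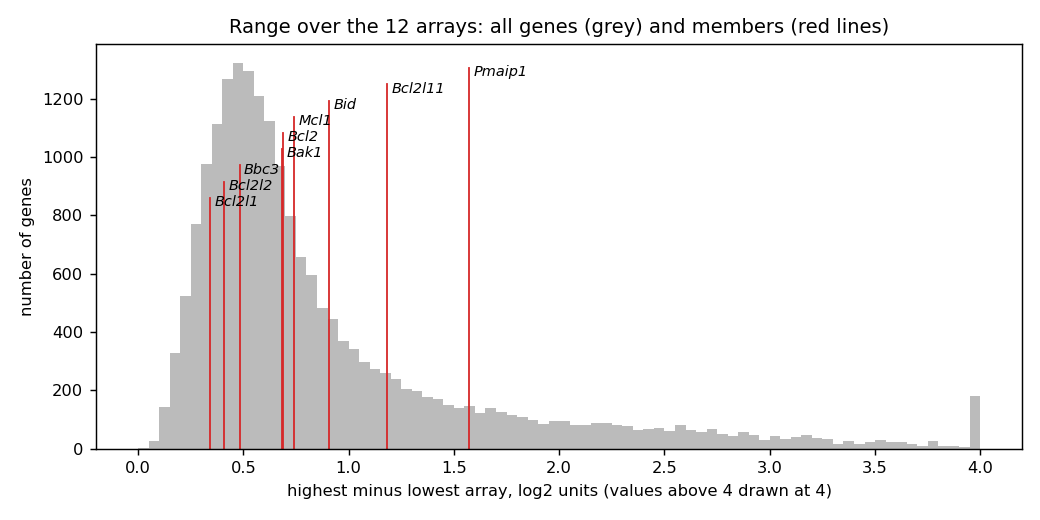
Number of genes (y axis) by the range of their values over the 12 arrays in log2 units (x axis; ranges above 4 are drawn at 4). Red lines mark the 9 members, from Bcl2l1 at 0.34 to Pmaip1 at 1.57, and their height only spaces the names.

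Within 1 array, Bcl2l11 stood farthest above Bid in WT under DSS, a pair chosen after their values were seen and given without a test. Bcl2l11 minus Bid was 0.46, 1.28 and 0.50 in WT DSS replicates 1 to 3, the 3 highest of the 12 values. It was 0.01, -0.34 and 0.05 at WT water, 0.10, -0.61 and -0.16 at TG water and 0.10, -0.28 and -0.55 in TG DSS, so that on TG water replicate 2 and TG DSS replicate 3 Bid lay above Bcl2l11 by more than Bcl2l11 lay above it on WT DSS replicates 1 and 3. Such a difference is set by both genes' distance from their own medians and gives no ratio of their amounts.

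Genes whose values over the 12 arrays lay nearest those of Pmaip1 were Gipc1, Tradd and Hmgcs1, with root mean square differences of 0.13 each, where Pmaip1 itself strays from its median by 0.39. Tradd, the adaptor of the TNF receptor, read 0.27, -1.21 and -0.55 in WT DSS replicates 1 to 3. Nearest to Bcl2l11, which strays by 0.30, were Rnf19b at 0.10, Ina at 0.11 and Tmc3 at 0.11. Rnf19b read 0.24, 0.63 and 0.30 in WT DSS replicates 1 to 3. The other 7 members spanned less than 1 log2 unit and were not matched. Among the members themselves Bcl2l1 and Bcl2l2 were nearest, at 0.13, and Bcl2l11 and Pmaip1 farthest apart, at 0.64.

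The wider apoptosis pathway was followed through 5 lists. No gene of them passed limma's adjusted test in any of the 5 comparisons. The counts that follow are at an unadjusted p under 0.05 for DSS in WT, where 15.2% of all genes stood. That share holds both directions, with 1136 of the 19935 genes higher and 1904 lower. The death receptor list, which covers ligands, receptors and their adaptors, had 5 of 12 genes higher and 0 lower, with a median of 0.27 beside -0.04 for all genes. Tnfsf10, the death ligand TRAIL, read -0.44, -0.25 and -0.04 at WT water and 0.56, 1.56 and 0.59 under DSS, a difference of 1.15 ± 0.25 (SE; limma adjusted p = 0.0824). Fas, the receptor of Fas ligand, stood at 0.73 ± 0.22, Cflar, an inhibitor of caspase-8, at 0.61 ± 0.20 and the deubiquitinase Cyld at 0.23 ± 0.09 (SE; limma adjusted p = 0.174, 0.207 and 0.281). Tnfsf10, Fas and Cflar were highest on WT DSS replicate 2, the array with the highest neutrophil and macrophage medians.

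Of the other BCL2 family genes 1 of 13 was higher and 3 were lower, and their median stood at -0.06. Bcl2l13, an outer mitochondrial membrane protein, stood at -0.37 ± 0.10, Bcl2l14 at -1.20 ± 0.42 and Bok, an effector related to BAK, at -0.27 ± 0.11 (SE; limma adjusted p = 0.152, 0.228 and 0.284). Bcl2l14 read -2.44 on WT DSS replicate 2 and -0.62 and -0.40 on the other WT DSS arrays, all below the water arrays. Bcl2a1c, of a survival gene family with near-identical copies whose signals the probes may not tell apart, read 0.54, 1.51 and 0.03 in WT DSS, for a difference of 0.74 ± 0.32 (SE; limma adjusted p = 0.314).

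The apoptosome and caspase list, which acts after mitochondria open, had 0 of 12 higher and 1 lower, with a median of -0.17. Aifm1, a mitochondrial flavoprotein, stood at -0.57 ± 0.22 and the initiator Casp9 at -0.30 ± 0.15 (SE; limma adjusted p = 0.27 and 0.377). The DNA fragmentation factor Dffa stood at -0.18 ± 0.10 and the mitochondrial nuclease Endog at -0.24 ± 0.14 (SE). Inhibitors of apoptosis had 0 of 9 genes in either direction and a median of -0.06. Birc3 and Birc2, ubiquitin ligases of TNF receptor signalling, stood at 0.36 ± 0.16 and 0.19 ± 0.09, Birc6 at 0.16 ± 0.09 and Birc5, the mitotic protein survivin, at -0.64 ± 0.35 (SE; limma adjusted p between 0.34 and 0.413).

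Genes of the p53 pathway, which induces Bbc3 and Pmaip1 after DNA damage, had 2 of 16 higher and 1 lower, with a median of -0.004. Plk2 stood at 1.38 ± 0.51 and Sesn1 at 0.75 ± 0.28, while Tigar was at -0.19 ± 0.08 and Trp53inp1 at -0.39 ± 0.19 (SE; limma adjusted p between 0.252 and 0.358). Plk2 read 2.68 on WT DSS replicate 2 and 0.43 on each of the other WT DSS arrays. At TG water against WT water none of the 5 lists had a gene at an unadjusted limma p under 0.05, where 0.306% of all genes stood. For DSS in TG, where 2.38% stood, the death receptor list had 2 of 12 higher, with Cyld at 0.25 ± 0.09 (SE). The p53 list had 1 of 16 lower and the remaining lists 0. Under DSS, where 15.9% stood, TG against WT had 3 of 12 death receptor genes lower. There the other BCL2 family had 2 of 13 in each direction and the apoptosome and caspase list 2 of 12 higher. The p53 list had 1 of 16 higher and 2 lower, and inhibitors of apoptosis 0.

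**Figure D4:**
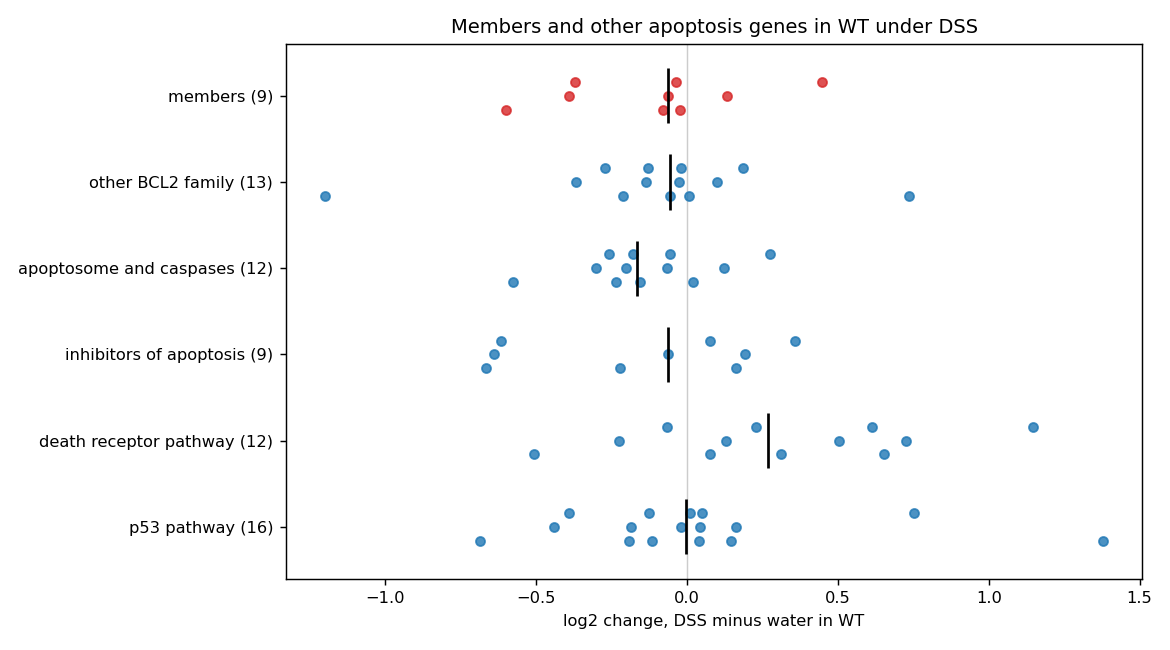
Log2 change of each gene, DSS minus water in WT (x axis), for the 9 members and 5 further apoptosis lists (rows, number of measured genes in brackets). Points are genes, spread vertically only for visibility, and black bars are list medians, from -0.17 for the apoptosome and caspases to 0.27 for the death receptor pathway.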

How the data were processed

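The deposited table holds log2 values of 28815 probe sets on 12 arrays. Signals were made with RMA in Affymetrix Expression Console, per the submitters' processing notes, in versions not given in the sources used. These notes do not state the log base, and base 2, which RMA returns, was assumed. The deposited log2 values are centred, since each probe set's median over the 12 arrays is 0 to within 5e-07, so no filter on dim probe sets was possible.

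Of the probe sets 21780 carry 1 gene symbol in GEO's platform annotation, 1605 several and 5430 none. Probe sets of 1 symbol were averaged per gene, which gave 19935 genes. All 12 arrays entered 1 limma 3.58.1 model with a mean for each group (R 4.3.3; eBayes with neither trend nor robust; 8 residual degrees of freedom). Two-sided p-values from all 19935 genes were adjusted together (Benjamini-Hochberg), with 0.05 as threshold and no fold limit. The pooled SE also draws on arrays outside a comparison. An exact permutation of 3 against 3 arrays was not used.

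The members, the 5 pathway lists and the 9 marker lists, 178 entries of which 160 were measured, were chosen with earlier results of these data known. All members were named. Of each pathway list the up to 4 genes of smallest p for DSS in WT were named, and for members spanning more than 1 log2 unit the 3 genes nearest by root mean square difference. Same-numbered arrays of different groups did not deviate together: in 1 of 18 pairs the correlation of deviations was over 0.1, with a range of -0.48 to 0.38. The number of arrays limits precision. Scripts were tested on simulated data. Alternatives were the 2 groups alone, the replicate number as a block, arrays centred on their median, weights per array or group, trended robust eBayes, single probe sets, a 1.5-fold limit and the omission of each array. Python 3.11.15, pandas 2.3.3, numpy 2.4.6 and matplotlib 3.10.9 made tables and figures.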

Additional observations from a re-analysis of the deposited data

Results flagged for a closer look

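The DSS differences of Bcl2l2 had opposite signs in the 2 genotypes. Both 95% intervals, -0.08 to 0.35 in WT and -0.31 to 0.12 in TG, hold values of either sign. Every WT DSS array lay above the mean of the WT water arrays and every TG DSS array below that of the TG water arrays, and likewise every TG array lay above the WT mean at water and below it under DSS. The DSS difference in TG minus that in WT was -0.225 (limma adjusted p = 0.852 for the interaction). Without WT DSS replicate 3 it was -0.134, and the DSS difference in WT was 0.043 in place of 0.134. For Bak1 the genotypes differed in opposite directions at water and under DSS, with every TG water array below the WT water mean and every TG DSS array above the WT DSS mean, and the interaction was 0.246 (limma adjusted p = 0.862). The opposite directions of Bak1 rest on WT DSS replicate 2, at -0.40 beside 0.18 and 0.21 on the other WT DSS arrays. Without it the genotype difference under DSS was -0.0879 and the interaction 0.0488, and without TG DSS replicate 1 the interaction was 0.155. Neither interaction passed, so a difference between the genotypes was not shown for these genes. How common such patterns are among all genes was not counted.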

How the results depend on the processing

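Of 45 member results (9 genes in 5 comparisons), 23 kept their direction in every alternative run and 22 turned in at least 1. Of 630 alternative values, 54 turned. The 2 groups alone, the replicate block, trended robust eBayes, a weight per group and single probe sets left each difference unchanged. For Bak1 under DSS in TG all of these gave 0.2097, the main value. Such values are among the 630 but cannot turn, and only the other alternatives tested the direction. Bcl2l11, Bid, Mcl1 and Pmaip1 kept their direction for DSS in WT and between the genotypes under DSS. The cause of each change below was not tested. Depth is not defined for arrays, the signal over background is hidden by the centring, and 3 arrays per group limit precision.

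Counts of genes that pass depended on the setting. For DSS in WT, 34 genes passed, but 0 with the 2 groups alone, 0 with the replicate block, 0 with a weight per group, 2 with trend and robust, 754 with a weight per array, 105 for single probe sets, and 0 to 919 when 1 array was left out, with 919 without WT DSS replicate 1, 575 without replicate 3 and 92 without replicate 2, and 83 without TG DSS replicate 1. Between the genotypes under DSS, 8 passed, but 0 with the 2 groups alone, with the replicate block, with trend and robust and with a weight per group, 4 with centred arrays, 273 with a weight per array, and 0 to 1166 when 1 array was left out (1166 without WT DSS replicate 1, 164 without replicate 3, 16 without replicate 2). A weight per array passed 1971 genes at water, 4 for DSS in TG and 12 for the interaction, each 0 otherwise, apart from 0 to 239 for the interaction when 1 array was left out. The replicate block changed no member's call.

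With a weight per array these turned: Bak1 to 0.00585 for DSS in WT and -0.0931 between genotypes under DSS, Bcl2 to 0.0238 for DSS in TG, -0.149 at water, 0.125 under DSS and 0.275 in the interaction, Bbc3 to -0.0896 at water and 0.0366 in the interaction, Bcl2l1 to 0.012 for DSS in WT and -0.16 in the interaction, Bid to -0.0139 for DSS in TG and Mcl1 to -0.0589 at water. Centring arrays turned Bbc3 for DSS in WT to 0.00977.

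Leaving out 1 array gave these ranges across 0. For DSS in WT they were -0.142 to 0.161 for Bak1, -0.103 to 0.0215 for Bbc3 and -0.266 to 0.0794 for Bcl2. For DSS in TG they were -0.161 to 0.0102 for Bcl2l1, -0.118 to 0.162 for Bcl2l11 and -0.102 to 0.137 for Bid. At water, TG minus WT was -0.0288 to 0.135 for Bbc3, -0.0948 to 0.16 for Bcl2, -0.0478 to 0.123 for Bcl2l1, -0.208 to 0.0268 for Bcl2l11, -0.0364 to 0.129 for Bid, -0.0891 to 0.071 for Mcl1 and -0.0879 to 0.168 for Pmaip1. Under DSS it was -0.0879 to 0.216 for Bak1, -0.0863 to 0.0076 for Bbc3, -0.222 to 0.123 for Bcl2 and -0.0107 to 0.0872 for Bcl2l1. The interaction was -0.246 to 0.0991 for Bcl2 and -0.0805 to 0.0903 for Bcl2l1.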
